A study of Mus musculus with 6 samples.

Results

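The matrix metalloproteases (Mmp genes) and the Adamts genes, which encode metalloproteases with a disintegrin domain and thrombospondin motifs, were examined for binding sites of pSmad1/5 and Smad4 in embryonic molar and limb. All protein-coding RefSeq genes of the mouse (mm10 coordinates, assembly GRCm38.p6) were taken whose symbol is Mmp or Adamts followed by a number and at most 1 letter. This gave 42 of 21883 genes, 23 Mmp and 19 Adamts. A binding site was assigned to a gene when the summit of a deposited peak lay inside the gene or within 50 kb of either end.

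The sites came from chromatin immunoprecipitation followed by sequencing (ChIP-seq), in which DNA bound by a protein is recovered with an antibody and sequenced. Limb tissue and molar tooth germ of wild-type CD1 embryos at E13.5 (embryonic day) were each precipitated with an antibody to pSmad1/5 and with one to Smad4. That gave 4 peak lists from 1 library each, and the 2 input samples were not used here. The labels name no transgene, mutation, treatment or cell sorting, so epithelium and mesenchyme may both be included, and the sources used here do not give the number of embryos behind each library. No difference between lists therefore has a replicate check, and no test was run. A peak list holds no expression values, so the labelled tissues could not be checked against markers, and a site in one cell type of a tissue cannot be told from a site in all of them.

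MMPs and ADAMTS proteases are zinc-dependent enzymes that cut the extracellular matrix. MMPs degrade collagens, basement membrane proteins and many other substrates, whereas ADAMTS proteases cut large proteoglycans such as versican and aggrecan, trim procollagens, or act on microfibrils. Bone morphogenetic proteins (BMPs) signal by phosphorylating Smad1 and Smad5, which enter the nucleus with the shared partner Smad4, and BMP signalling is required in tooth mesenchyme and in the limb bud, where matrix turnover accompanies cartilage formation, digit separation and tissue invagination.

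The limb lists held 23389 pSmad1/5 and 29756 Smad4 peaks, and the molar lists 35476 and 34561. Read depth is unknown, so the length of a list is no measure of binding. Each peak carries the authors' enrichment score, which is used here only to rank and filter peaks within a list. The lowest score, rounded down, was 3 on all members' chromosomes in the limb lists. Molar pSmad1/5 scores started at 2 on chromosomes 1, 3, 6, 12, 13, 14 and 16, molar Smad4 scores started at 4 on chromosomes 2, 5, 8, 9, 11 and 19, and both started at 3 elsewhere. A gene without a molar peak on the second set of chromosomes may thus have peaks below the listed range, and the chromosome is given beside the results it touches.

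Sequences upstream of 6 members are printed as examples. They were picked for peak bases or a word match, so they do not show how peaks and base composition go together among the members. The first 3 hold bases of a pSmad1/5 peak, marked by capitals. The peak reaches the start at Mmp15 and Adamts2 and ends before it at Mmp25. Each holds the 180 bases before the RefSeq start (GRCm38.p6), written 5′ to 3′ on the gene's strand. Mmp15 lies at chr8:95352116-95352295 (plus strand, molar pSmad1/5 peak), Mmp25 at chr17:23645270-23645449 (minus strand, molar pSmad1/5 peak) and Adamts2 at chr11:50601905-50602084 (plus strand, limb pSmad1/5 peak).
Mmp15: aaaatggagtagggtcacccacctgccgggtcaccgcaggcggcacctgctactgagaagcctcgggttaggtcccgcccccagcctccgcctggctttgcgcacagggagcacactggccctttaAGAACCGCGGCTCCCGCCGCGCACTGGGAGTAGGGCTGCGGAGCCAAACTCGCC
Mmp25: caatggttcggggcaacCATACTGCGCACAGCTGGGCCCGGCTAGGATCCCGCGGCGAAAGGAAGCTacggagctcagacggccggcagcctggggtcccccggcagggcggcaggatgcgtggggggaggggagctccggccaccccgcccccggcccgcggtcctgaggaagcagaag
Adamts2: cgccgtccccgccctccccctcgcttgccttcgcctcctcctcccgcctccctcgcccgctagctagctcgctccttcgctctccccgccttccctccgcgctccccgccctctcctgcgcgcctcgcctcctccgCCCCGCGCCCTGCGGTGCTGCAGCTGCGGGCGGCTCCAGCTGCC
They are rich in G and C, at 67.2%, 72.8% and 77.8% of their bases.

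The other 3 come from the row of Mmp genes on chromosome 9, where no list had a peak at any gene start. Here capitals mark a match to TGANTCA, a word wider than the consensus of AP-1, a factor long known to act at several Mmp promoters. That consensus is TGACTCA on either strand, which is what Mmp13 and Mmp1a hold, whereas the match of Mmp20 is another form. Mmp13 lies at chr9:7272334-7272513, Mmp1a at chr9:7463961-7464140 and Mmp20 at chr9:7628051-7628230, all on the plus strand of GRCm38.p6.
Mmp13: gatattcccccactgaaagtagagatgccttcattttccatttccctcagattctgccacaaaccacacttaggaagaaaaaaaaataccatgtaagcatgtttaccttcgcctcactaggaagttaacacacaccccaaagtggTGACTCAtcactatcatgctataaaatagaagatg
Mmp1a: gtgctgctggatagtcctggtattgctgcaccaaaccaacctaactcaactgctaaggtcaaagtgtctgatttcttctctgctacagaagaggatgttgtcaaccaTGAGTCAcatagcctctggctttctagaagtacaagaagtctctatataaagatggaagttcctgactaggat
Mmp20: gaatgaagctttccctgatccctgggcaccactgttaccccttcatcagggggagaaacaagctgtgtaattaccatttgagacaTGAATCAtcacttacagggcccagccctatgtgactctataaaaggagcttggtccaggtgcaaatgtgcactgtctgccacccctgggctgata
G and C made up 40%, 43.3% and 50% of these bases, and the match began 35, 73 and 95 bases before the start of Mmp13, Mmp1a and Mmp20 respectively.

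Peaks lay near most of the 42 genes, about as often as near other genes. Limb pSmad1/5 peaks were found for 26 of 42 genes (61.9%, 95% interval 45.6 to 76.4%), against 68% of all protein-coding genes. Limb Smad4 peaks were found for 30 (71.4%, 55.4 to 84.3%), against 71.2% of all genes. Molar pSmad1/5 peaks were found for 35 (83.3%, 68.6 to 93.0%), against 74.9%, and molar Smad4 peaks for 31 (73.8%, 58.0 to 86.1%), against 68%. All 4 intervals, which are exact binomial intervals and cover counting error only, include the share of all genes. They treat the genes as independent, although the row of 10 Mmp genes on chromosome 9 shares peaks. Outside that row, a split made after seeing the data, 24, 30, 30 and 26 of 32 members had a peak in the same order of lists. These were 75%, 93.75%, 93.75% and 81.25%, and in the row 2, 0, 5 and 5 of 10 genes had one. The median number of peaks per member was 1 for limb pSmad1/5, 2 for limb Smad4 and 2 for either molar list, and over all genes it was 1, 2, 2 and 1 in the same order.

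Peaks with a score of at least 4 gave the same reading. Members with such a peak numbered 11 in limb pSmad1/5 (26.2%, 13.9 to 42.0%) against 34.3% of all genes, and 24 in limb Smad4 (57.1%, 41.0 to 72.3%) against 43.4%. In the molar there were 13 for pSmad1/5 (31.0%, 17.6 to 47.1%) against 27.8%, and 21 for Smad4 (50%, 34.2 to 65.8%) against 38.9%. Of these members, 11, 24, 11 and 16 in the same order of lists were among the 32 outside the row on chromosome 9. None of these intervals leaves out the share of all genes, which the plot of shares shows with those near gene starts.

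**Figure D1:**
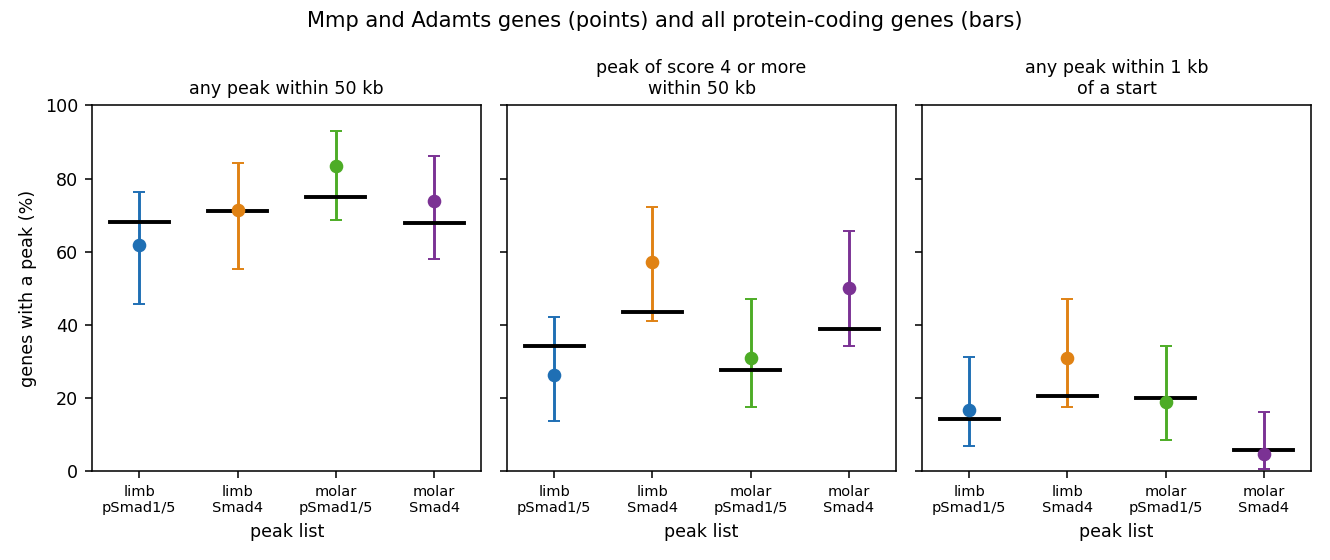
The share of genes with a peak (%, vertical axes) in each of the 4 peak lists (horizontal axes), for Mmp and Adamts genes (points, with exact 95% binomial intervals over 42 genes) and for all 21883 protein-coding genes (black bars). The left panel counts any peak within 50 kb, the middle panel peaks of score 4 or more, and the right panel peaks within 1 kb of a start, and every interval spans its black bar.

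The genes shared windows with each other and with unrelated neighbours. Their windows merged into 31 loci covering 6.41 Mb, which held 93 pSmad1/5 and 133 Smad4 peaks of limb and 105 pSmad1/5 and 92 Smad4 peaks of molar. That was 14.5, 20.7, 16.4 and 14.4 peaks per Mb, beside 12.0, 15.6, 16.7 and 15.2 per Mb over the windows of all genes. Inside a member lay 39, 50, 45 and 43 of these peaks, and inside another gene 34, 65, 30 and 23. A peak within 50 kb is therefore often as close to a gene of another family as to the protease gene, and the gene at each named site is given below.

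**Figure D2:**
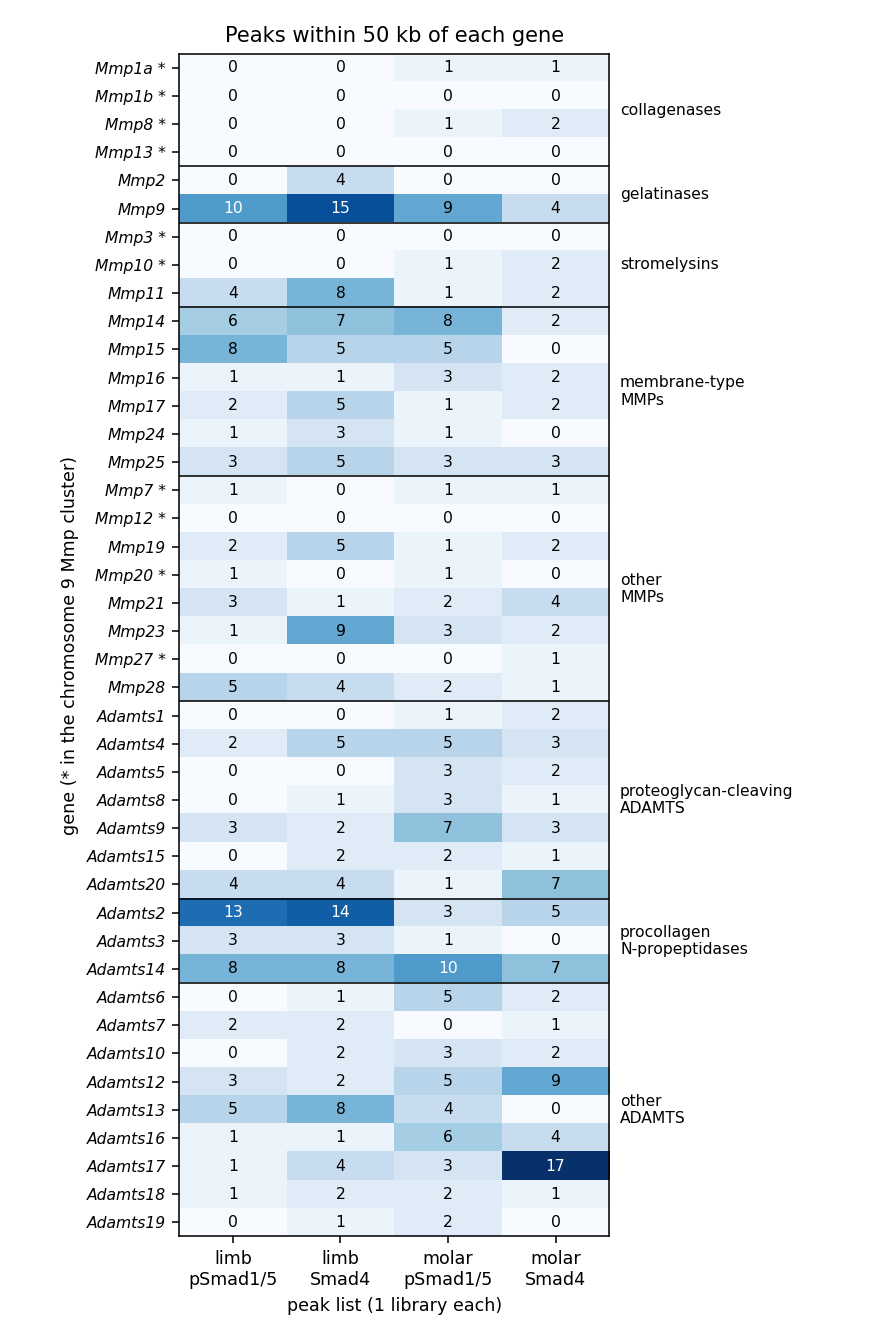
The number of peaks within 50 kb (printed in each cell, darker for more) of each Mmp and Adamts gene (vertical axis, grouped by kind of enzyme) in each peak list (horizontal axis, 1 library each), with an asterisk at the 10 genes of the chromosome 9 cluster. Cluster genes have between 0 and 2 peaks in each list, and the highest counts are 17 molar Smad4 peaks at Adamts17 and 15 limb Smad4 peaks at Mmp9.

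The collagenases and 2 of the 3 stromelysins had no peak in limb and few in molar. Collagenases cut fibrillar collagen, and none of Mmp1a, Mmp1b, Mmp8 and Mmp13 had a limb peak for either antibody (68% and 71.2% of all genes). The same held for Mmp3 and Mmp10, stromelysins that cut proteoglycans and activate other MMPs. These genes belong to a cluster of 10 on chromosome 9 with Mmp12 (macrophage elastase), Mmp27, Mmp20 and Mmp7 (matrilysin). Mmp20, or enamelysin, cuts amelogenin during enamel formation, a stage that the molar has not reached at E13.5.

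The window of the cluster, chr9:7222514-7749585 on mm10, spans 527072 bp and held 1 limb pSmad1/5 peak, 0 limb Smad4 peaks, 2 molar pSmad1/5 peaks and 3 molar Smad4 peaks. That was 1.90, 0, 3.79 and 5.69 peaks per Mb, beside 6.76, 7.54, 10.4 and 4.03 per Mb in the gene windows of chromosome 9. Fewer pSmad1/5 and limb Smad4 peaks thus lay in the cluster than in the same length of gene windows on its chromosome, whereas the molar Smad4 density, from 3 peaks, was higher. None of the 6 peaks lay inside a gene of the cluster, and Mmp13, Mmp12, Mmp1b and Mmp3 had no peak in any list. Having no peak in any list was shared by 11.6% of all genes.

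The peaks that were found lay between genes. A molar pSmad1/5 peak of score 5.15, among the 3 highest of that list in the members' windows, had its summit at 7685493, between Mmp20 and Mmp7 and 6597 bp before the start of Mmp7. A limb pSmad1/5 peak of score 3.04 lay 1678 bp before the same start, with its summit at 7690412. Molar Smad4 peaks of score 4.77 and 4.36 had summits at 7520782 and 7527216, both beyond the end of Mmp10, where a molar pSmad1/5 peak of score 3.12 lay at 7510777. As the windows overlap, the peaks at 7510777 and 7520782 count for Mmp1a, Mmp10 and Mmp8, and the one at 7527216 for Mmp10, Mmp8 and Mmp27. The last molar Smad4 peak, of score 4.28 at 7749541, lay nearest to Tmem123. On chromosome 9 the molar Smad4 list starts at a score of 4.

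**Figure D3:**
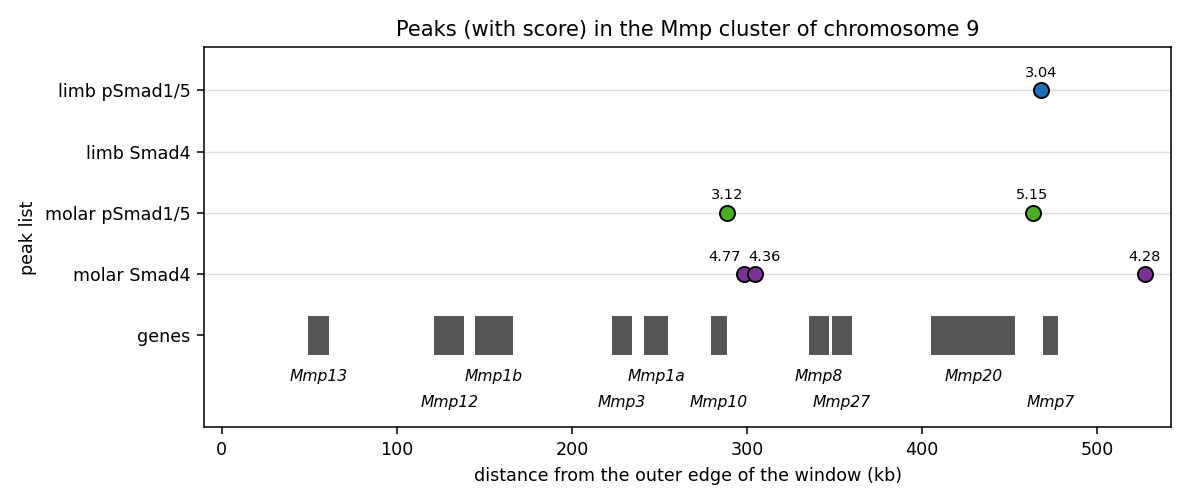
Peaks of each list (vertical axis, points labelled with the authors' score) along the Mmp cluster of chromosome 9, by distance from the outer edge of the window on the Mmp13 side (horizontal axis, kb), with the 10 genes as grey boxes. The stretch from Mmp13 to Mmp1a holds no peak, and all 6 peaks lie outside the grey boxes.

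The promoters of the cluster also differed from those of the other members in their letters. RefSeq promoter entries (250 bases before to 50 after a start, GRCm38.p6) were held for 28 of the 42 genes, with 31 entries, 12 of them in the cluster. The 12 come from 10 neighbouring genes of a family, with Mmp12 and Mmp7 counted at both of their starts, so they are not independent. The word TGANTCA, read on both strands, was present in 8 of 12 cluster promoters (66.7%), in 0 of 19 promoters of other members and in 6.99% of 21262 promoters of protein-coding genes. The narrower TGACTCA, the AP-1 consensus, was in 7 of 12 (58.3%), 0 of 19 and 4.66% respectively. The 8 promoters with TGANTCA belonged to Mmp13, Mmp12, Mmp1b, Mmp3, Mmp1a, Mmp10, Mmp20 and Mmp7, and all but that of Mmp20 held TGACTCA. The GC-rich word GGCGCC, of the kind that Smad1/5 binds, was in 0 of 12 cluster promoters, in 7 of 19 others (36.8%) and in 15.3% of all. The 7 include both overlapping entries of Mmp23, which hold the same site. Of the promoters with a pSmad1/5 summit, that of Adamts2 held the word, and those of Adamts3, Mmp14, Mmp15 and Mmp25 did not. Promoters of Mmp24, Mmp23, Adamts9, Adamts14 and Mmp11 held it without such a summit. The short Smad word GTCTG was in 6 of 12, 11 of 19 and 48.4% respectively, and its palindromic form GTCTAGAC was in 0 of 31 member promoters and in 0.226% of all. TGANTCA includes TGACTCA, and no other word contains another. Median GC content was 41.7% in the cluster (37.7 to 52.0%), 64.7% in the other members (54.3 to 80.0%) and 56.3% over all promoters. Member promoters with a pSmad1/5 summit had a GC content from 56.0% (Mmp14) to 77.3% (Adamts2 and Adamts3). Those without such a summit ran from 37.7% (Mmp10) to 80.0% (Mmp24). Whether base composition and peak density are related here was not tested.

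Outside the cluster, Mmp genes had peaks more evenly. All 13 had a limb Smad4 peak (71.2% of all genes) and 12 had a limb pSmad1/5 peak (68%). In molar, 12 had a pSmad1/5 peak (74.9% of all genes) and 10 a Smad4 peak (68%). The gelatinases, which cut denatured collagen and basement membrane collagen, differed from each other. Mmp2 (chromosome 8) had 0 limb pSmad1/5 peaks, 4 limb Smad4 peaks and, in molar, 0 pSmad1/5 and 0 Smad4 peaks. Its Smad4 peaks had scores of 3.56, 3.19, 3.11 and 4.15, and those of 3.19 and 3.11 lay 932 and 1234 bp to either side of one end of the gene. Mmp2 was the only member with limb Smad4 peaks and no peak in the other 3 lists. The molar Smad4 list starts at 4 on chromosome 8, and the molar pSmad1/5 list starts at 3.

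Mmp9, the gelatinase of osteoclasts and growth plate vascularisation, had 10, 15, 9 and 4 peaks, in the same order of lists as for Mmp2 and in all counts of this form that follow. Only 1 limb pSmad1/5 peak and 2 molar pSmad1/5 peaks lay inside the gene itself, with scores of 3.47, 3.58 and 3.51. Most others lay in its neighbours Zfp335 and Slc12a5, including the highest limb Smad4 peak of the window, of score 4.94 in Zfp335. Molar Smad4 peaks of score 4.05 and 4.24 flanked Mmp9, 241 and 284 bp outside its 2 ends. The high count at Mmp9 is thus mostly a count of its gene-dense surroundings.

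The membrane-type MMPs are tethered to the cell surface. All 6 had peaks in the limb for both antibodies and in the molar for pSmad1/5, and 4 had a molar Smad4 peak. Of all genes, 68%, 71.2%, 74.9% and 68% had a peak in the order of the lists. Mmp15 (chromosome 8) had 8, 5, 5 and 0 peaks. It carried the highest-scoring limb pSmad1/5 peak of all members, of score 6.50 at chr8:95352365-95352426, 107 bp into the gene. It also carried the highest limb Smad4 peak, of score 6.06, 1007 bp into the gene, and another of score 3.81 at 669 bp. The molar pSmad1/5 peak printed above, of score 3.50, had its summit 29 bp before the start and 136 bp from that of the limb peak. The peaks of limb and molar thus lay side by side at this start without overlapping.

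Mmp14, the main activator of Mmp2 at the cell surface, had 6, 7, 8 and 2 peaks. Around its start only the molar pSmad1/5 list had peaks, with scores of 2.29, 3.54 and 3.30 at 243 bp before and 629 and 787 bp after the start. The first of these lies below the score of 3 at which the molar list starts on other chromosomes. No limb pSmad1/5 peak lay inside Mmp14, and 1 limb Smad4 peak did, of score 3.81. The highest limb pSmad1/5 peaks of the window, of 4.80 and 4.39, lay nearest to Rem2 and Mrpl52.

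Mmp25, which is anchored by a lipid and typical of leukocytes, had 3, 5, 3 and 3 peaks. Its molar pSmad1/5 peak, printed above, had a score of 3.86 with its summit 150 bp before the start, at a position that also lies inside Bicdl2. A limb Smad4 peak of 3.92 lay 543 bp and a molar Smad4 peak of 3.15 lay 1203 bp into the gene. No limb pSmad1/5 peak lay within 2 kb of this start.

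Mmp16 and Mmp17 have no strand in the gene table, so distances are from the nearer end. At Mmp16 a limb Smad4 peak of 3.47 and a limb pSmad1/5 peak of 3.40 lay 188 and 274 bp inside one end, with summits 86 bp apart. Its molar peaks were all inside the gene and far from that end, with pSmad1/5 scores of 4.28, 3.46 and 4.17 and Smad4 scores of 3.57 and 3.33. Mmp17 had a molar pSmad1/5 peak of 4.29, 397 bp outside one end. Mmp24, a neuronal membrane-type MMP on chromosome 2, had 1, 3, 1 and 0 peaks, none within 1 kb of its start. Its highest limb Smad4 peak, of 5.23, lay in Edem2.

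The remaining Mmp genes had peaks in all 4 lists, as did 44.4% of all genes. Mmp11, or stromelysin-3, which is expressed by mesenchyme during tissue remodelling, had 4, 8, 1 and 2 peaks. Limb Smad4 peaks of 5.37, 3.80 and 3.87 lay 260 bp after and 526 and 926 bp before its start, and another of 5.83 lay in the adjacent Chchd10. Both molar Smad4 peaks and the molar pSmad1/5 peak were outside the gene. Mmp23 had 1, 9, 3 and 2 peaks, of which a limb Smad4 peak of 3.30 lay 61 bp before its start, and 6 limb Smad4 peaks lay in the neighbouring Mib2.

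Mmp28, or epilysin, had 5, 4, 2 and 1 peaks, with a limb Smad4 peak of 3.78 at 613 bp into the gene. Mmp21, which is required for left-right asymmetry, had 3, 1, 2 and 4 peaks. The 1 limb Smad4 peak, of 4.27, was inside Mmp21. The highest in the other lists, a limb pSmad1/5 peak of 4.81 and a molar Smad4 peak of 5.16, lay in Dhx32 and Uros. Mmp19 had 2, 5, 1 and 2 peaks, none inside the gene, and a limb pSmad1/5 peak of 3.64 lay 466 bp outside one end, in Tmem198b.

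Among the 19 Adamts genes, 12 had a limb pSmad1/5 peak (68% of all genes) and 17 a limb Smad4 peak (71.2%). A molar pSmad1/5 peak was found for 18 of them (74.9% of all genes) and a molar Smad4 peak for 16 (68%). Their median length was 114 kb, beside 17 kb for the Mmp genes outside the cluster. Whether gene length and the number of peaks are related here was not tested. The procollagen N-propeptidases Adamts2, Adamts3 and Adamts14, which trim fibrillar procollagens before fibrils assemble, differed in number of peaks. Adamts2 had 13, 14, 3 and 5 peaks, of which 9, 10, 1 and 2 lay inside the gene.

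At the start of Adamts2, limb pSmad1/5 peaks lay 6 bp before and 491 and 742 bp after the start, with scores of 3.32, 3.72 and 3.55. A limb Smad4 peak of 5.18 at chr11:50602533-50602790 overlapped the latter pair. No molar peak lay within 5 kb of this start. The nearest was a molar Smad4 peak of 5.06 at 9907 bp, and the highest molar pSmad1/5 peak, of 5.24, lay inside the gene at 50747717. Adamts2 lies on chromosome 11, where the molar Smad4 list starts at 4.

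Adamts3, which also processes the lymphatic growth factor VEGF-C, had 3, 3, 1 and 0 peaks. Limb pSmad1/5 peaks of 3.59 and 4.38 lay 3 and 166 bp into the gene, and a molar pSmad1/5 peak of 3.88 lay 1057 bp in. The last limb pSmad1/5 peak, of 3.31, lay deeper in the gene. Limb Smad4 peaks had scores of 3.01, 3.31 and 3.18, the last of them 1189 bp before the start. Adamts14 had 8, 8, 10 and 7 peaks, 6, 6, 7 and 4 of them inside the gene. A molar pSmad1/5 peak of 3.70 lay 70 bp into Adamts14, and its highest molar Smad4 peak, of 5.25, lay inside it at 61232459.

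A stretch inside Adamts14 had peaks of 3 of the 4 lists side by side. A limb pSmad1/5 peak of 3.55 at chr10:61225311-61225359 overlapped a limb Smad4 peak of 3.30 at chr10:61225303-61225351, with summits 6 bp apart. A molar pSmad1/5 peak of 4.15 had its summit 46 bp from the limb pSmad1/5 summit and 52 bp from the limb Smad4 summit. The nearest molar Smad4 summits were at 61231190 and 61232459. The site lies 48065 bp from the start of Adamts14.

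The proteoglycan-cleaving ADAMTS were all present in both molar lists. All 7 had a molar pSmad1/5 and a molar Smad4 peak (74.9% and 68% of all genes), and 3 had a limb pSmad1/5 and 5 a limb Smad4 peak (68% and 71.2% of all genes). The 7 are not independent, since Adamts1 and Adamts5, and Adamts8 and Adamts15, are neighbours that share peaks. Adamts1 and Adamts5, adjacent on chromosome 16, had no limb peak for either antibody. Adamts1 had 1 molar pSmad1/5 peak, of score 2.29, and 2 molar Smad4 peaks, of 3.03 and 3.01, all outside the gene. Adamts5, an aggrecanase of cartilage, had molar pSmad1/5 peaks of 3.74, 2.69 and 3.44 and molar Smad4 peaks of 3.01 and 3.18. The first of these lay inside Adamts5, 757 bp from one end. The molar pSmad1/5 list starts at 2 on chromosome 16, and scores of 2.29 and 2.69 would not be listed where it starts at 3.

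Adamts4, the other aggrecanase, had 2, 5, 5 and 3 peaks on chromosome 1. A molar Smad4 peak inside it scored 5.74, the highest molar Smad4 peak of all members, and lay 1543 bp from one end. The highest molar pSmad1/5 peak of all members, of 5.96, was in its window but nearest to Fcer1g. Inside Adamts4, limb Smad4 and limb pSmad1/5 summits lay 79 bp apart, with scores of 3.41 and 3.08.

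Adamts9 and Adamts20 are close relatives that cut versican and act in digit separation and palate growth. Adamts9 had 3, 2, 7 and 3 peaks. Both limb Smad4 peaks were inside the gene, and the one of score 4.89 lay 21 bp before the RefSeq start, which is itself inside the annotated gene. The 7 molar pSmad1/5 peaks had scores from 2.14 to 3.95 on a chromosome where the list starts at 2. Adamts20 had 4, 4, 1 and 7 peaks. Its RefSeq start is also inside the annotated gene, and near it lay a limb pSmad1/5 peak of 3.55 at 270 bp, a limb Smad4 peak of 5.38 at 405 bp and a molar Smad4 peak of 3.25 at 742 bp on the other side. The limb summits of the 2 antibodies were 135 bp apart.

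Adamts8 and Adamts15 lie next to each other on chromosome 9 and share most of their peaks. A molar pSmad1/5 peak of 3.94 lay 425 bp inside one end of Adamts8, and another of 3.24 lay 630 bp inside one end of Adamts15. A molar Smad4 peak of 4.61 inside Adamts15 and a limb Smad4 peak of 4.14 inside Adamts8 completed the sites within these genes. Neither had a limb pSmad1/5 peak.

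Of the other ADAMTS, Adamts17 stood out by number. Adamts17, which acts on fibrillin microfibrils, is the longest member at 313473 bp and had 1, 4, 3 and 17 peaks. Of the 17 molar Smad4 peaks, 15 lay inside the gene, with scores from 3.03 to 4.65. Its highest limb Smad4 peak, of 5.98 at 67045921, ranked second of that list among the members. A limb and a molar Smad4 peak overlapped inside Adamts17, at chr7:66912671-66912758 and chr7:66912655-66912719, with scores of 3.82 and 3.18 and summits 9 bp apart. This was the 1 overlap between the tissues for Smad4 in all 31 loci, or 0.752% of 133 limb Smad4 peaks, beside 0.518% of the whole list.

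Adamts7 and Adamts12, which cut cartilage oligomeric matrix protein, differed from each other. Adamts7 (chromosome 9) had 2, 2, 0 and 1 peaks and was the 1 member with a pSmad1/5 peak in limb and none in molar. Its limb pSmad1/5 peak of 5.41 lay inside the gene, 1771 bp from one end, and a limb Smad4 peak of 4.35 lay 373 bp inside the other. Adamts12 had 3, 2, 5 and 9 peaks, with scores up to 4.42 for the molar Smad4 peaks inside it and a molar pSmad1/5 peak of 5.13 in the neighbouring Tars.

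Adamts16 and Adamts6 lie on chromosome 13, where the molar pSmad1/5 list starts at 2. Adamts16 had 1, 1, 6 and 4 peaks, and its 6 molar pSmad1/5 scores ran from 2.13 to 2.78. A limb Smad4 peak of 4.71 lay 928 bp outside one end of Adamts16. Adamts6 had 0, 1, 5 and 2 peaks, with molar pSmad1/5 scores from 2.31 to 2.87. With a score of at least 3 in that list, Adamts16, Adamts6 and Adamts1 would have no molar pSmad1/5 peak. The count would then be 32 of 42 members (76.2%, 60.5 to 87.9%) against 64.8% of all genes.

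Adamts10, a microfibril-associated relative of Adamts6, had 0, 2, 3 and 2 peaks. Molar pSmad1/5 and Smad4 summits lay 269 bp apart inside it, with scores of 3.32 and 4.02, and a limb Smad4 peak there scored 5.16. Adamts13, which cuts von Willebrand factor in blood, had 5, 8, 4 and 0 peaks, with 2 limb pSmad1/5 peaks of 4.15 and 3.20 and 1 molar pSmad1/5 peak of 3.14 inside the gene. All 8 limb Smad4 peaks of its window lay outside it, in Stkld1, Cacfd1 and Slc2a6 or next to them. Adamts18 had 1, 2, 2 and 1 peaks, and its limb pSmad1/5 and Smad4 summits lay 561 and 519 bp into the gene, 42 bp apart, with scores of 3.30 and 3.27. Adamts19 had 0, 1, 2 and 0 peaks, all inside the gene, with scores of 4.38, 3.82 and 3.90.

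Within 1 kb of a start, 22 members had 38 peaks over the 4 lists. The share of all genes with such a peak in any list was not computed, so the 22 cannot be ranked against it. Counted by list, 7 members had such a limb pSmad1/5 peak (16.7%, 6.97 to 31.4%) against 14.2% of all genes, and 13 a limb Smad4 peak (31.0%, 17.6 to 47.1%) against 20.6%. Molar pSmad1/5 peaks lay there in 8 members (19.0%, 8.60 to 34.1%) against 20% of all genes, and molar Smad4 peaks in 2 (4.76%, 0.582 to 16.2%) against 5.8%. Those were Adamts20 and Mmp9. Of all lists as deposited, molar Smad4 thus had fewest peaks at starts, for the members as for all genes. The lists start at different scores, however. With a score of at least 4 in each, 2 and 6 members had a limb pSmad1/5 and Smad4 peak there, and 1 had a peak in each molar list. Shares of all genes at that score and distance were not computed. For 14 members without a promoter entry, either gene end counted as a start, and the same rule was used for all genes. An entry was held for 28 of 42 members and for 17491 of 21883 genes, so either end counted more often among the members. With promoter entries required, the counts were 5 and 9 in limb and 4 and 1 in molar, and shares of all genes were not computed that way.

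**Figure D4:**
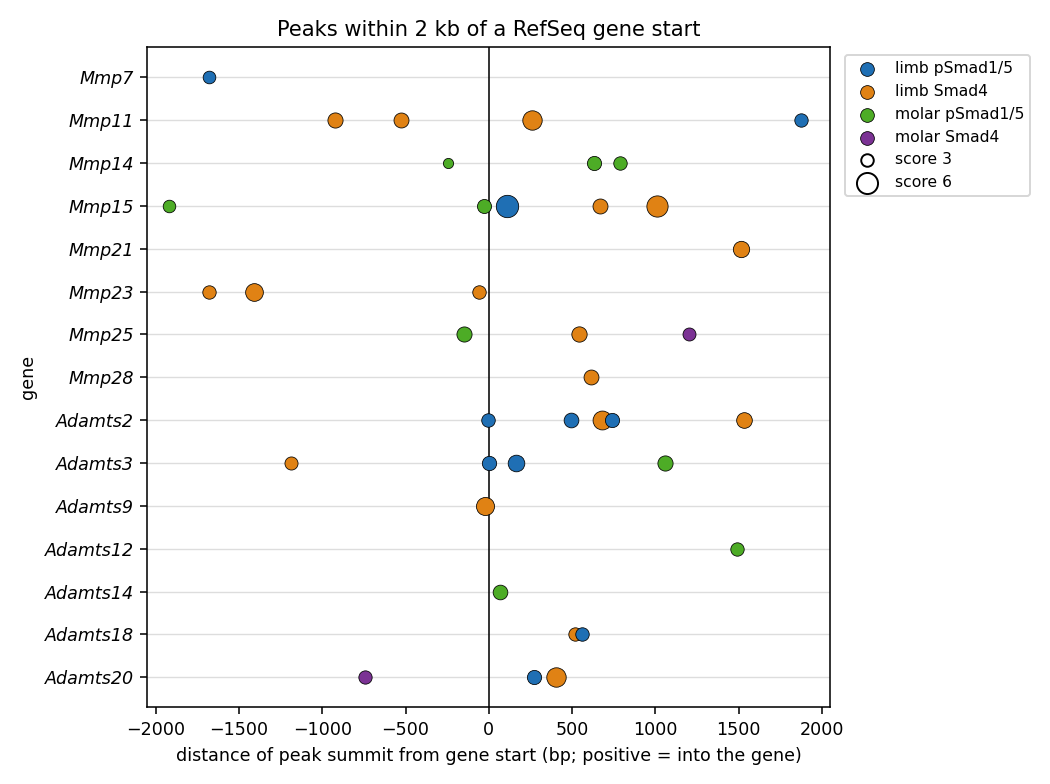
Peak summits within 2 kb of a RefSeq start (horizontal axis, bp, positive into the gene) for the members with a promoter entry and such a peak (vertical axis), coloured by list and sized by the authors' score. Limb pSmad1/5 summits sit at the starts of Mmp15, Adamts2 and Adamts3, molar pSmad1/5 summits at those of Mmp14, Mmp15, Mmp25 and Adamts14, and molar Smad4 points appear at Mmp25 and Adamts20.

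Inside the RefSeq promoter itself, limb pSmad1/5 summits lay in those of Adamts2 and Adamts3, limb Smad4 summits in those of Adamts9 and Mmp23, and molar pSmad1/5 summits in those of Mmp14, Mmp15 and Mmp25. No member promoter held a molar Smad4 summit. Over all promoters of protein-coding genes, 3.70%, 5.61%, 5.86% and 0.912% held a summit in the order of the lists.

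By tissue, the members divided much as all genes did. Of 42 members, 25 had a pSmad1/5 peak in limb and in molar (60.1% of all genes), 1 in limb and not in molar (Adamts7; 7.92% of all genes), 10 in molar and not in limb (14.8%), and 6 in neither (17.1%). The 10 were Adamts1, Adamts5, Adamts6, Adamts8, Adamts10, Adamts15, Adamts19, Mmp1a, Mmp8 and Mmp10. Among them, Adamts1 and Adamts6 had only scores below 3, and Mmp1a, Mmp8 and Mmp10 share 1 peak.

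For Smad4, 24 members had a peak in both tissues (56.0% of all genes), 6 in limb and not in molar (15.2%), 7 in molar and not in limb (12.0%), and 5 in neither (16.9%). The 6 were Adamts3, Adamts13, Adamts19, Mmp2, Mmp15 and Mmp24, and all but Adamts19 lie on chromosomes where the molar list starts at a score of 4. Over chromosomes of that kind, 13 of 23 members had a molar Smad4 peak and 13 a limb one, whereas on the others 18 of 19 had a molar and 17 a limb one. The 23 include the 10 genes of the chromosome 9 cluster, of which 5 had a molar Smad4 peak and 0 a limb one. Of all chromosome 9 genes, 41.4% had a molar Smad4 peak and 60.3% a limb one. The equal counts of 13 thus do not hold outside the cluster, where limb peaks were more frequent on these chromosomes. The 7 found in molar and not in limb were Adamts1, Adamts5, Mmp1a, Mmp7, Mmp8, Mmp10 and Mmp27. Peaks in all 4 lists were found at 19 members, and at 44.4% of all genes.

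Although most genes had peaks in several lists, the peaks themselves rarely coincided. In limb, 7 of 93 pSmad1/5 peaks in the members' windows overlapped a Smad4 peak by at least 1 bp (7.53%, 3.08 to 14.9%), beside 4.85% of the whole list. These were the site inside Adamts14, both sites at the start of Adamts2, and sites in the windows of Mmp28, Mmp14 and Mmp9 that lay in 1700020L24Rik, Lrp10, Pcif1 and Ncoa5. In molar, 0 of 105 pSmad1/5 peaks overlapped a Smad4 peak, beside 0.589% of the whole list. A limit of 3 counts allows a share of up to 2.86%, and the exact interval reaches 3.45%. Between tissues, 0 of 93 limb pSmad1/5 peaks overlapped a molar pSmad1/5 peak, beside 1.70% of the whole list. That allows up to 3.23% by 3 counts and 3.89% by the exact interval. For Smad4, 1 of 133 limb peaks overlapped a molar peak (0.752%, 0.019 to 4.12%), beside 0.518% of the whole list.

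Peaks were narrow, with median widths of 53 to 62 bp in the members' windows, so nearby sites can fail to overlap. With summits within 500 bp counted instead, 19 of 93 limb pSmad1/5 peaks lay beside a limb Smad4 peak (20.4%, 12.8 to 30.1%), and in the whole list 13.1% did. Of these, 9 lay inside a member: 3 in Adamts2 and 1 each in Adamts4, Adamts14, Adamts20, Mmp16, Adamts9 and Adamts18. In molar, 2 of 105 pSmad1/5 peaks lay beside a molar Smad4 peak (1.90%, 0.232 to 6.71%), in Adamts10 and near Mmp28, beside 3.01% of the whole list. Of the molar pSmad1/5 peaks, 11 of 105 lay beside a limb Smad4 peak (10.5%, 5.35 to 18.0%), beside 7.33% of the whole list. Limb and molar pSmad1/5 summits lay within 500 bp of each other at 6 of 93 limb sites (6.45%), beside 7.14% of the whole list. These were 2 sites in Adamts14, the start of Mmp15, 2 sites near Mmp9 and 1 near Mmp14.

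Genes that act with these proteases were counted in the same way. By this rule 68%, 71.2%, 74.9% and 68% of all genes had a peak, in the order of the lists. Differences of the small sets below from these shares were not tested. The inhibitors Timp1 to Timp4 and Reck, which block MMPs, had a limb peak for each antibody in 5 of 5 genes, a molar pSmad1/5 peak in 4 and a molar Smad4 peak in 5. Timp2 had 15, 14, 4 and 1 peaks, and the limb Smad4 peak nearest to a start lay 136 bp from that of Reck, 264 bp from that of Timp3, 429 bp from that of Timp4 and 548 bp from that of Timp2. The 6 Adamts-like genes, which encode related proteins without the protease domain, had a peak in every list. Adamtsl1 had 1, 2, 2 and 22 peaks, so that most of its peaks, like those of Adamts17, came from the molar Smad4 list.

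Of 7 activators, 6, 7, 6 and 7 had a peak in the order of the lists, among them Furin, which cuts the propeptide of membrane-type MMPs, with 2, 5, 4 and 8. Of 8 Adam proteases, which shed proteins from the cell surface, 7, 8, 6 and 6 had a peak, and Adam12 had 3, 6, 0 and 22. Of 15 substrates, 12, 11, 13 and 13 had a peak. Versican (Vcan) had 1, 0, 6 and 2 peaks, with a limb pSmad1/5 peak 90 bp from a start, and aggrecan (Acan) had 4, 2, 3 and 4. The neighbouring enamel matrix genes Ambn and Enam had 0, 1, 0 and 0, the same limb Smad4 peak counting for both.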

How the data were processed

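ChIP-seq for pSmad1/5 and Smad4 was done on wild-type CD1 limb and molar at E13.5, fixed in 1% formaldehyde for 15 min per the labels. Of 6 samples, 4 have a peak list (1 library per group) and 2 inputs were not used here. Peak calling used the BCP_TF program, per the labels, and the authors deposited positions, a summit, an enrichment score and a p-value per peak. The deposited score ranked and filtered peaks, and the deposited p-value (at most 0.000999 in every list) was not used. Bowtie2, SAMtools, bedtools, deepTools, bcl2fastq and mm10 are named without versions or roles in the submitters' processing notes. The sources used here do not say whether the inputs served as controls. Peaks were called per library, and read depth is unknown.

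Genes came from RefSeq on GRCm38.p6, which has no strand. Starts came from its promoter entries (28 of 42 members), and either gene end stood in for 14 members. Peaks of different lists that overlapped by 1 bp or more were called shared. Intervals are exact (Clopper-Pearson) at 95%, and a share of 0 is given with the limit of 3 counts. Sequences and words come from the RefSeq promoter table, and no sequence of other peaks was used. The genes named are those with a peak within 1 kb of a start, at the 3 highest-scoring peaks of each list, at shared peaks, with a peak of score 4 or more in 1 tissue, or with no peak in any list, and a fixed set of well-known members. The other members were also named, after their values were seen. The members and lists were chosen with earlier results of these data known. Counting was tested on simulated data. Alternatives were other distances, scores, overlap rules, equal numbers of top-scoring peaks per chromosome (15764 per list) and overlapping members counted as a locus. A score of at least 3, only peaks in or nearest to a member, leaving out the chromosome 9 cluster, members with a promoter entry, and the word TGACTCA were added after seeing the data. The work was done in Python 3.11.15 with pandas 2.3.3, numpy 2.4.6 and scipy 1.17.1, and plots were drawn with matplotlib 3.10.9.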

Additional observations from a re-analysis of the deposited data

How the results depend on the processing

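Of 88 recomputed values, 53 stayed within 1.5 times the count given above, or within the counting interval of a share, and 35 moved further. Some of the 53 could not move. A score of at least 3 removes no peak from the members' windows in the limb lists and the molar Smad4 list. Stricter rules cannot lower a share that is already 0. The 53 are therefore no measure of how stable the results are. With windows of 10 kb, 18 members had a molar Smad4 peak, and 52, 75, 60 and 52 distinct peaks remained in the order used above, limb pSmad1/5 and Smad4 before molar pSmad1/5 and Smad4. With a score of at least 4, members with a pSmad1/5 peak numbered 11 in limb and 13 in molar, and distinct peaks 16, 41, 16 and 35. Members with such a peak within 1 kb of a start then numbered 2, 6, 1 and 1. Within 5 kb of a start, with any score, 12, 21, 14 and 9 of the 42 members had a peak. The share of all genes was not computed for windows of 10 kb, for 5 kb of a start, or at score 4 near a start. With equal numbers of top-scoring peaks per chromosome, 50, 58, 68 and 52 distinct peaks were counted. Among the alternatives chosen after seeing the data, counting peaks inside a member or nearest to it left 48, 64, 65 and 61, and requiring a promoter entry left 4 members with a molar pSmad1/5 and 1 with a molar Smad4 peak near a start. The overlap of limb pSmad1/5 with limb Smad4 was 20.4% with summits within 500 bp, 0% (0 of 16 peaks) at a score of at least 4 and 2% (1 of 50) with equal top-scoring peaks. With summits within 500 bp, 6.45% of limb pSmad1/5 peaks lay beside a molar pSmad1/5 peak. Limb Smad4 peaks shared with molar Smad4 were 0% (0 of 41 and 0 of 58) at a score of at least 4 and with equal top-scoring peaks. The cause of these moves was not tested, other than that stricter settings hold fewer peaks. No paired analysis was possible because each tissue and antibody has 1 library. Unknown depth limits every count of 0, and molar lists start at different scores on different chromosomes.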
